A study of Mus musculus with 24 samples.

Results

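The genes described here are 9 genes of lipid uptake, carriage, storage and efflux that mark lipid-handling macrophages: Apoe, Trem2, Lpl, Abca1, Fabp4, Fabp5, Cd36, Plin2 and Gpnmb. They were chosen by symbol, and all 9 were found among the 32285 genes of the single-cell RNA-Seq count matrix. Levels were followed in macrophages, monocytes, stromal cells and endothelial cells of Panc02 tumors, a transplantable mouse pancreatic cancer line. Male WT C57BL/6 mice, 6 to 7 weeks old, were implanted s.c. with Panc02 cells. They received 1 of 8 treatments, which were isotype control, PancVAX, anti–PD-1, anti–CTLA-4, PancVAX with anti–PD-1, PancVAX with anti–CTLA-4, anti–PD-1 with anti–CTLA-4, and all 3 agents. PancVAX is a neoantigen peptide vaccine (given on days 12 and 19 at a peptide dose of 50 ug, which the study's methods state per peptide) that by the study's methods also held AddaVax and a STING agonist, with PBS in its place in the other mice, so that an effect of PancVAX joins peptides and adjuvants. Anti–CTLA-4 was given at 100 ug on days 15 and 22 and anti–PD-1 at 100 ug, 2 times a week from day 12, and tumors were taken on day 38. These days are those of the study's methods. A figure legend of the study gives day 19 for the second anti–CTLA-4 dose and an earlier day for the tumors. Tumors were pooled by treatment, and each treatment gave a whole-tumor library and a second one from cells enriched for leukocytes on a Percoll gradient, 16 libraries in all. Both libraries of a treatment are called its pool. The pool was the unit of every treatment comparison, with 4 pools with and 4 without each agent. No label says that the libraries came from separate mice, so p values measure the spread between pools, which may be technical. The preparations were also the sequencing batches, and these cannot be told apart.

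Lipid-handling macrophages take up lipoproteins, fatty acids and cell debris, store the surplus as neutral lipid in droplets, and return cholesterol to carriers outside the cell. The nuclear receptor LXR senses cholesterol derivatives and drives efflux genes such as Abca1 and Apoe, and TREM2 is a surface receptor that binds lipids and lipoproteins. In tumors, macrophages high in these genes are often called lipid-associated. Several of the same genes serve other cells: capillary endothelium uses CD36, FABP4 and FABP5 to pass fatty acids to the tissue, and lipoprotein lipase (LPL) acts on the endothelial surface.

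The libraries held 77132398 to 176233225 unique molecular identifiers (UMIs), and 57357 of 144994 barcodes (39.6%) passed the limits of the study's methods, at a median of 2782 to 4193 UMIs per cell in a library. A cell was placed in a gate when at least 3 markers of its panel, and at least 2 more than of any other of 9 panels, had a UMI. The members were not used for gating. The gates held 13754 macrophages, 491 monocytes, 1714 stromal cells and 264 endothelial cells, and 16241 cells entered no gate. At most 45 barcodes were shared by a pair of libraries (median 17). The Percoll library of PancVAX with anti–PD-1 stood apart, with 361 stromal cells against 42 to 125 in the other Percoll libraries. Percoll libraries held 3 to 36 endothelial cells, and only 4 of 8 reached the 10 cells needed for a value. Since cells were gated on these panels, high sums of the own panel follow from the gate: the macrophage panel was 16532 to 20452 CPM (UMIs scaled to the total of the gate and pool) in macrophages and 97.7 to 763 CPM in endothelial cells, and the endothelial panel was 5234 to 7825 CPM in endothelial cells and 40.1 to 62.8 CPM in macrophages. Stromal cells also held 1157 to 1641 CPM of the monocyte panel, mostly from Plac8 (mean 1325 CPM), and a median of 1131 CPM of the tumor or epithelial panel, mostly from Krt8 and Krt18 (377 and 747 CPM). The stromal gate is less certain as a label, since 1376 of its 1714 cells also carried 2 or 3 of Sox9, Prelp and Ogn, genes of cartilage-like cells.

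The members divided among the 4 gates in distinct ways. Apoe and Trem2 were highest in macrophages, Fabp4 and Cd36 in endothelial cells, and, of these 4 gates only, Plin2 in monocytes. Of 54 differences (9 members by 6 pairs of gates), 41 passed an adjusted p of 0.05 in an exact two-sided sign-flip permutation test of log2(CPM + 1) over the 8 pools. The smallest p this test allows is 0.0078, which became 0.0114 after Benjamini-Hochberg adjustment over the 54. The gates are made of other genes of the same cells, so the tests say how the members follow the gates and not that the gates exist. The same test was not run over all genes, so the count does not say that the members differ more between gates than other genes.

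**Figure D1:**
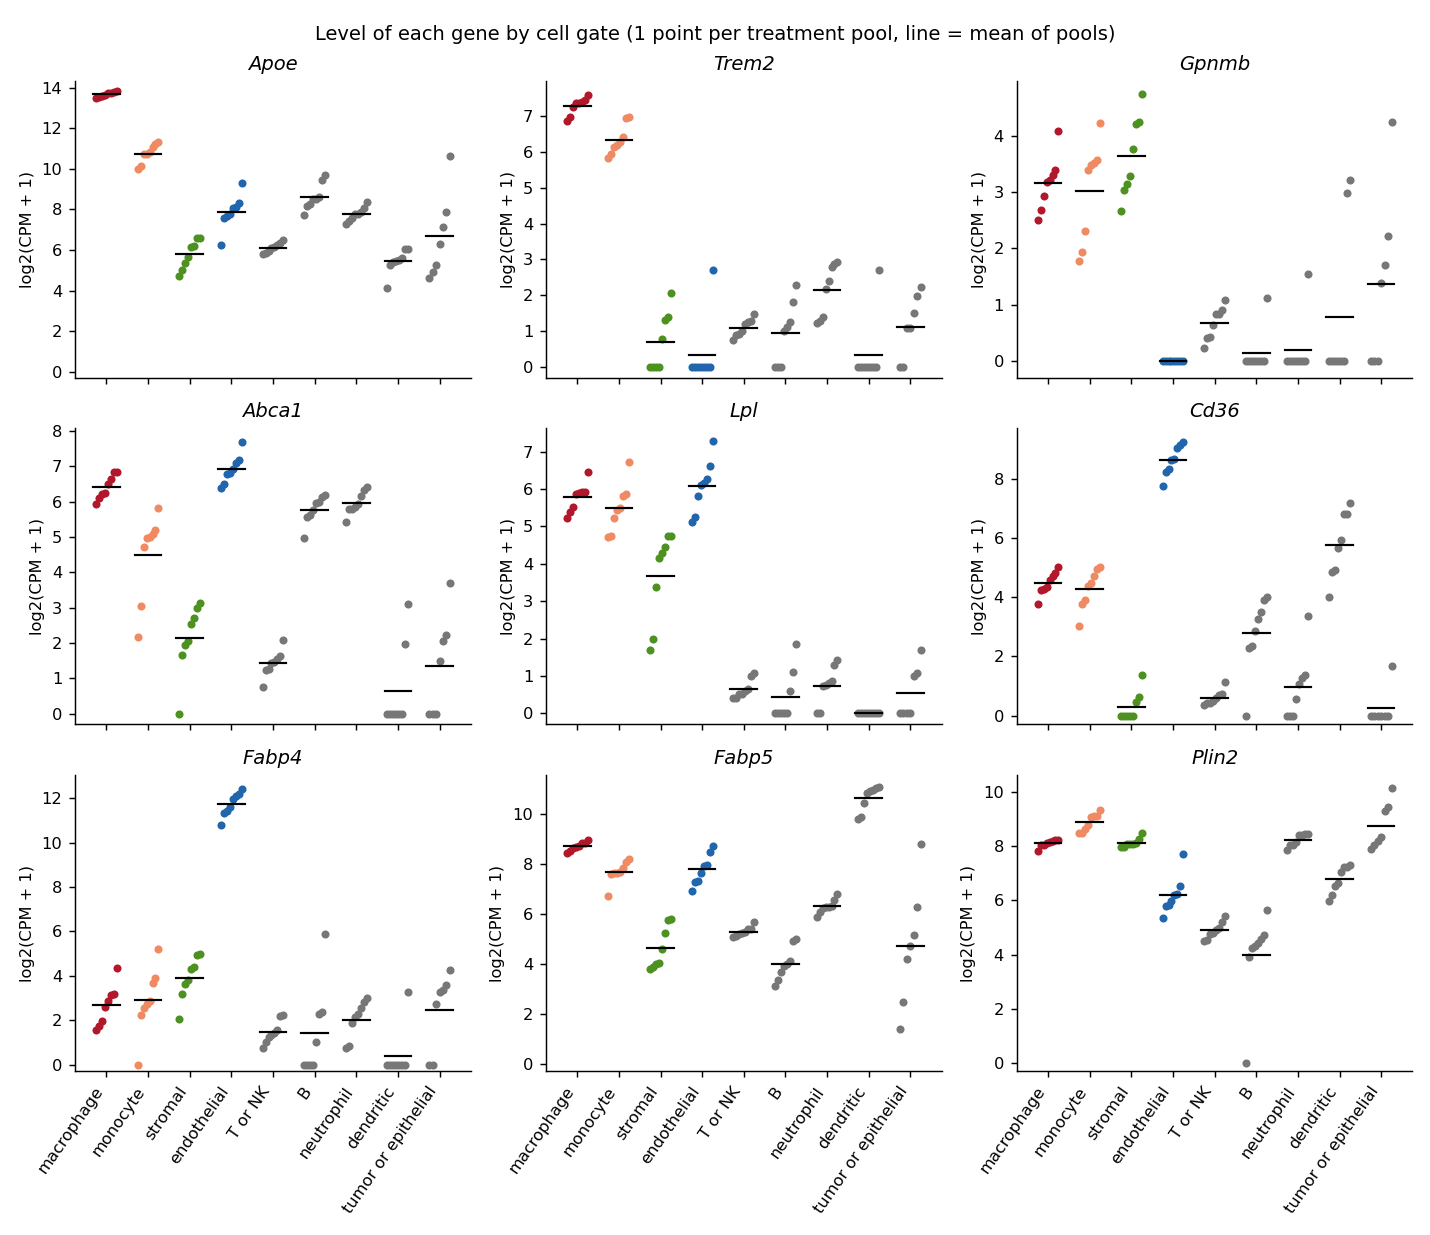
Level of each member in 9 gates, as log2(CPM + 1), with 1 point per treatment pool with at least 10 cells and a line at the mean of the pools; the 4 gates described are colored and the other 5 are gray. Apoe and Trem2 stand highest in macrophages, Fabp4 and Cd36 stand highest in endothelial cells, and Gpnmb is at 0 in all 8 endothelial values.

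APOE is the lipoprotein component that carries cholesterol out of macrophages and is bound by lipoprotein receptors. Apoe (ENSMUSG00000002985, chr7:19696244-19701310 in GRCm38.p6 by RefSeq, as are all gene positions here) ran from 11665 to 14829 CPM over the 8 macrophage pools, with a median of 13409. Monocyte pools spanned 1015 to 2555 CPM (median 1759), endothelial pools 74.6 to 640 (median 244) and stromal pools 25.6 to 97.1 (median 60.0), so macrophages overlapped no other gate. Macrophages exceeded monocytes by 2.93 on the log2 scale (SD 0.40, n = 8 pools, adjusted exact permutation p = 0.0114), in 8 of 8 pools. All 6 gate differences of Apoe passed, the stromal minus endothelial one (-2.11) at an adjusted exact permutation p of 0.0216, which a stricter gate moved to 0.0527 (-1.54). Some Apoe was found in every gate: T or NK cells had 69.4 ± 12.2 CPM (SD, n = 8), neutrophils 224 ± 55.1 and B cells 433 ± 217, while the stromal mean was 60.1 ± 27.7 and the endothelial mean 275 ± 165. The stromal mean did not stand above that of T or NK cells. The endothelial mean stood above that of T or NK cells but not above that of B cells. Neither is read as expression, and where this Apoe came from was not tested. Set against the macrophage complement genes C1qa, C1qb and C1qc, there were 81.2 Apoe UMIs per 100 C1q UMIs in macrophages. There were 60.4 in T or NK cells, 80.8 in neutrophils, 105 in stromal cells, 142 in endothelial cells and 146 in B cells. Dendritic cells had 98.6, tumor or epithelial cells 926 and monocytes 710. The C1q genes are macrophage markers, so placement in any gate but that of macrophages itself limits C1q. Apoe in tumor or epithelial cells was uneven, with a median of 76.7 CPM and a highest value of 1594 CPM over 7 pools.

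TREM2 pairs with the adaptor TYROBP to signal lipid binding. Trem2 (ENSMUSG00000023992, chr17:48346401-48352276) ran from 116 to 193 CPM in macrophage pools (median 164) and from 55.7 to 124 CPM in monocyte pools (median 74.1). It was near 0 elsewhere, with 9 UMIs in all stromal cells and 1 UMI in all endothelial cells. Macrophages were above monocytes in 8 of 8 pools, by 0.95 on the log2 scale (SD 0.32, adjusted exact permutation p = 0.0114). The 3 genes whose log2(CPM + 1) followed Trem2 best over 32 gate-by-pool values were Pkib (Pearson r = 0.99), Sirpb1a (0.98) and Psap (0.98). These points share libraries and cells, and r is a description.

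GPNMB is a lysosomal and surface glycoprotein of foam cells. Gpnmb (ENSMUSG00000029816, chr6:49036518-49058182) was low, at 4.64 to 16.0 CPM in macrophages (median 8.15), 2.41 to 17.8 in monocytes (median 9.81) and 5.33 to 25.8 in stromal cells (median 10.7). These 3 gates overlapped, and none of their 3 differences passed. In whole-tumor libraries alone monocytes were below macrophages (macrophage minus monocyte 1.88, adjusted exact permutation p = 0.0402) and below stromal cells (monocyte minus stromal -2.43, 0.0206), and with a stricter gate macrophages were below stromal cells (-0.93, 0.0433). No Gpnmb UMI was found in 264 endothelial cells, which allows a share of up to 1.14% of cells with a UMI, and the endothelial pools held only 20 to 52 cells each. The 3 other gates had Gpnmb in all 8 pools, so their passing differences from the endothelial gate follow from its zeros. In whole-tumor libraries alone monocyte minus endothelial was 1.28 and did not pass (adjusted exact permutation p = 0.276).

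ABCA1 moves cholesterol out of the cell to lipid-poor apolipoproteins. Abca1 (ENSMUSG00000015243, chr4:53030789-53159988) was highest in endothelial cells (83.5 to 207 CPM, median 116), followed by macrophages (60.2 to 115, median 82.4), monocytes (3.49 to 55.6, median 30.7) and stromal cells (0 to 7.73, median 4.01). Macrophages and endothelial cells overlapped, and their difference of -0.51 (SD 0.48) only just passed (adjusted exact permutation p = 0.0412), which it lost in 6 of 8 fits that left out 1 pool (-0.41 to -0.54, adjusted exact permutation p of 0.0767 to 0.0823), and in 6 of 9 other alternatives. Monocytes and stromal cells overlapped too, and their difference of 2.37 (SD 1.91) also only just passed (adjusted exact permutation p = 0.0412). It lost the call with a stricter gate (1.90, adjusted exact permutation p = 0.0603) and in whole-tumor libraries alone (1.45, 0.272). It was also lost without the pool of PancVAX, all 3 agents, PancVAX with anti–PD-1, PancVAX with anti–CTLA-4, both antibodies, or anti–PD-1. The adjusted exact permutation p was then 0.0767 to 0.0823. Abca1 was also measured in B cells (55.5 ± 13.7 CPM, SD, n = 8) and neutrophils (62.8 ± 14.4), while T or NK cells had 1.77 ± 0.73.

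LPL cuts triglycerides of lipoproteins into fatty acids. Lpl (ENSMUSG00000015568, chr8:68880555-68906932) ran from 36.3 to 87.4 CPM in macrophages (median 58.4), from 25.3 to 105 in monocytes (median 43.1), from 33.4 to 154 in endothelial cells (median 69.4) and from 2.25 to 25.8 in stromal cells (median 17.7). The first 3 of these gates overlapped with no difference past the threshold, and all 3 exceeded stromal cells (adjusted exact permutation p = 0.0114 for each). A stricter gate ended the calls of macrophages and monocytes over stromal cells (0.98 and 0.76, adjusted exact permutation p = 0.0767 and 0.0687), as did a 5% mitochondrial limit for monocytes (1.36, 0.0703). In whole-tumor libraries alone macrophages and monocytes were below endothelial cells (-0.99 and -0.82, adjusted exact permutation p = 0.0206 for both). In Percoll libraries alone the stromal minus endothelial difference turned from -2.40 to 2.16, over the 4 pools with endothelial values (adjusted exact permutation p = 0.153). Outside these gates Lpl was close to 0, at 0.59 ± 0.30 CPM in T or NK cells (SD, n = 8).

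CD36 is a scavenger receptor and fatty acid translocase. Cd36 (ENSMUSG00000002944, chr5:17781690-17888959) was at 217 to 614 CPM in endothelial pools (median 407) against 12.8 to 31.6 in macrophages (median 21.1) and 7.23 to 31.8 in monocytes (median 20.6). Endothelial cells were above macrophages in 8 of 8 pools, the macrophage minus endothelial difference being -4.17 (SD 0.78, adjusted exact permutation p = 0.0114). Macrophages and monocytes did not differ past the threshold (0.19, SD 0.73), while a stricter gate called macrophages higher (2.62, adjusted exact permutation p = 0.0234). Stromal cells held 3 Cd36 UMIs in all. Dendritic cells, outside the 4 gates, had 68.8 ± 47.8 CPM (SD, n = 8).

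FABP4 and FABP5 are cytosolic carriers that bind fatty acids. Fabp4 (ENSMUSG00000062515, chr3:10204342-10208616) separated endothelial cells most widely, with 1798 to 5522 CPM over pools (median 3565) against 1.95 to 19.5 in macrophages (median 5.69) and 0 to 35.5 in monocytes (median 5.99). The macrophage minus endothelial difference was -9.06 (SD 1.11, adjusted exact permutation p = 0.0114). Stromal cells had a mean of 16.8 CPM against 6.74 in macrophages (macrophage minus stromal -1.23, adjusted exact permutation p = 0.0502). Macrophages were called lower with clusters in place of gates (-2.07, adjusted exact permutation p = 0.0117) and in whole-tumor libraries alone (-1.34, 0.0117). They were also called lower with no cap on UMI and gene numbers (-1.22, 0.01) and without the PancVAX pool (-1.58, 0.0222). Adipocytes also use Fabp4. Of the adipocyte panel, Adipoq, Plin1, Cidec and Retn had no UMI in the endothelial gate, and Cfd, the fifth marker, had 6, of which 5 were in the 7 Percoll cells of the anti–PD-1 pool (50.3 CPM in that pool, 4.25 CPM in the pool of PancVAX with anti–PD-1 and 0 in the other 6). Genes most like Fabp4 over the 32 values were Cldn5 (r = 0.97), Adgrl4 (0.96) and Egfl7 (0.96). Cldn5 and Egfl7 are markers of the endothelial panel, so their high values in that gate follow from the gating. Their likeness to Fabp4 is no separate support.

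Fabp5 (ENSMUSG00000027533, chr3:10012585-10016610) was spread more evenly, at 347 to 501 CPM in macrophages (median 415), 104 to 294 in monocytes (median 203), 119 to 422 in endothelial cells (median 219) and 12.9 to 54.4 in stromal cells (median 19.2). Macrophages exceeded monocytes by 1.04 on the log2 scale (SD 0.33), in 8 of 8 pools, and endothelial cells by 0.93 (SD 0.70), in 7 of 8, at adjusted exact permutation p values of 0.0114 and 0.0216. In whole-tumor libraries alone the second difference was 0.52 and no longer passed (adjusted exact permutation p = 0.0589). The stromal mean of 28.1 ± 17.8 CPM lay below the T or NK mean of 38.6 ± 5.32 (SD, n = 8). T or NK cells had 33.3 Fabp5 UMIs per 100 C1q UMIs against 2.59 in macrophages, and where their Fabp5 came from was not tested. Dendritic cells were higher than all 4 gates, at 1670 ± 521 CPM.

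PLIN2 coats lipid droplets. Plin2 (ENSMUSG00000028494, chr4:86626910-86670217) ran from 354 to 647 CPM in monocytes (median 488), from 223 to 302 in macrophages (median 277), from 248 to 358 in stromal cells (median 269) and from 40.3 to 206 in endothelial cells (median 67.2). It was the only member of the 9 higher in monocytes than in macrophages past the threshold (macrophage minus monocyte -0.78, SD 0.36, adjusted exact permutation p = 0.0114), in 8 of 8 pools. Macrophages and stromal cells did not differ past it (-0.03, SD 0.20), but macrophages were called lower with clusters in place of gates (-0.34, adjusted exact permutation p = 0.0211) and with no cap on UMI and gene numbers (-0.16, 0.0188). Outside these gates, mean Plin2 was 505 CPM in tumor or epithelial cells, above the monocyte mean of 478 CPM. In neutrophils it was 301 CPM, above the macrophage mean of 274 CPM. Dendritic cells (115 CPM), T or NK cells (29.3 CPM) and B cells (21.1 CPM) were lower. These outside gates were not tested. Cebpb, a transcription factor gene, followed Plin2 best (r = 0.96).

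The macrophage and monocyte values were also taken under other assignments of cells. The 666 cells with 3 or more markers of each panel had 5667 Apoe CPM, between the pooled macrophage value of 13239 and the pooled monocyte value of 1844. They had 190 Trem2 CPM, 47.5 Cd36 CPM, 516 Plin2 CPM, 24.6 Gpnmb CPM, 467 Fabp5 CPM and 9.66 Fabp4 CPM, each above the pooled values of both gates. Over the 8 pools these ran from 130 to 270, 7.89 to 88.4, 320 to 661, 0 to 70.4, 200 to 741 and 0 to 23.5 CPM. Each range overlapped that of macrophages, of monocytes or of both, and no test was made. When clusters drawn without the members replaced gates, the monocyte class grew to 1632 cells, with Cd36 at 64.0 ± 21.7 CPM and Gpnmb at 30.9 ± 21.3 CPM (SD, n = 8) against 17.9 ± 3.88 and 6.25 ± 1.46 CPM in the macrophage class. The macrophage minus monocyte differences then were -1.73 for Cd36, -1.77 for Gpnmb and -2.44 for Fabp4 (adjusted exact permutation p = 0.0117 for each), those of Trem2, Abca1 and Fabp5 no longer passed, and those of Apoe and Plin2 kept their direction and call. For Cd36 and Gpnmb this is the opposite direction to the calls of the stricter gate (Cd36) and of whole-tumor libraries (Gpnmb) given above. Of the 12463 cells of the macrophage class, 3678 were a cluster whose leading genes were the mast cell proteases Cma1, Mcpt2, Mcpt1, Tpsb2 and Mcpt4. In that cluster 3571 cells were in the macrophage gate, with 9.97 CPM of these proteases against 6.39 CPM in the other macrophages, and 106 cells in no gate held 25359 CPM. With that cluster left unnamed the macrophage class had 8785 cells, and the differences were -1.81 for Cd36, -1.73 for Gpnmb and -2.70 for Fabp4 (adjusted exact permutation p = 0.0117 for each). Plin2 in macrophages minus stromal cells was then -0.26 and no longer called (adjusted exact permutation p = 0.0785).

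The limits of 10000 UMIs and 3000 genes per cell also moved these values. Without them the endothelial gate grew to 676 cells and the stromal gate to 15378, endothelial Cd36 was 108 ± 38.2 CPM in place of 422 ± 141 (SD, n = 8), endothelial Fabp4 was 1514 ± 286 in place of 3615 ± 1256, and endothelial Lpl was 12.8 ± 5.28 in place of 74.0 ± 38.4. Lpl was then higher in macrophages than in endothelial cells, by 2.17 on the log2 scale (adjusted exact permutation p = 0.01).

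Within the macrophage gate, the members could be counted per cell after each cell was thinned to 1000 UMIs. Apoe had a UMI in 94.1% of thinned cells (97.2% unthinned), Fabp5 in 23.1% (44.1%), Plin2 in 20.3% (50.8%), Trem2 in 12.6% (33.1%), Abca1 in 7.12% (21.9%), Lpl in 4.27% (12.2%), Cd36 in 1.96% (5.61%), Gpnmb in 0.62% (1.55%) and Fabp4 in 0.56% (1.43%). In T or NK cells the thinned shares were 6.35% for Apoe (median depth 3686 UMIs against 4026.5 in macrophages), 3.39% for Fabp5, 2.84% for Plin2 and at most 0.20% for the other 6 members. The 95% interval of the macrophage share of Trem2 was 12.0% to 13.2% (exact Clopper-Pearson, counting error only).

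The 85 macrophages with a Gpnmb UMI, 7 to 16 per pool, carried other members more often than the 13669 without. Fabp5 had a UMI in 71.8% against 22.8%, Plin2 in 49.4% against 20.1%, Abca1 in 18.8% against 7.05% and Lpl in 10.6% against 4.23%, each higher in 8 of 8 pools. Trem2 was found in 37.6% against 12.4%, higher in 7 of 8 pools, Apoe in 97.6% against 94.1%, also in 7 of 8, Cd36 in 15.3% against 1.87%, higher in 6 of 8, and Fabp4 in 7.06% (6 cells) against 0.52%, higher in 4 of 8. Not every pair of members went this way. Macrophages with an Apoe UMI less often had Lpl (4.03% against 8.00% of those without), Plin2 (20.1% against 23.5%), Cd36 (1.92% against 2.46%) and Fabp4 (0.53% against 0.98%). They more often had Trem2, Abca1, Fabp5 and Gpnmb. Cells are not replicates and doublets were not called, so these shares are a description.

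**Figure D2:**
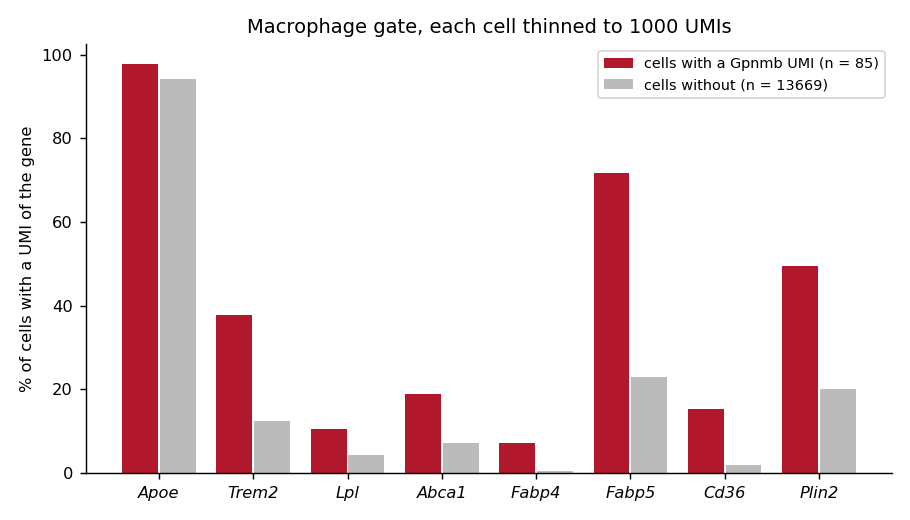
Percent of macrophage-gate cells with a UMI of each other member, for the 85 cells with a Gpnmb UMI and the 13669 without, each cell thinned to 1000 UMIs. All 8 bars of cells with Gpnmb are the higher of the pair, with the gap for Fabp5 at 71.8% against 22.8%.

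Sequence upstream of the start site was available for 6 of the 9 members in RefSeq (GRCm38.p6, the mm10 assembly): Apoe, Trem2, Abca1, Cd36, Plin2 and Gpnmb. The 250 bases before a RefSeq start site are shown for 3 genes that stand for the 3 patterns, Trem2 (macrophage and monocyte), Cd36 (endothelial) and Abca1 (macrophage and endothelial), 5′ to 3′ on the strand of the gene. Capitals mark matches on either strand to the E-box CACGTG, the PU.1 core GAGGAAG (reverse complement CTTCCTC), the GC box GGGCGG and the TATA box TATAAA.
Trem2 upstream window (chr17:48346151-48346400, plus strand): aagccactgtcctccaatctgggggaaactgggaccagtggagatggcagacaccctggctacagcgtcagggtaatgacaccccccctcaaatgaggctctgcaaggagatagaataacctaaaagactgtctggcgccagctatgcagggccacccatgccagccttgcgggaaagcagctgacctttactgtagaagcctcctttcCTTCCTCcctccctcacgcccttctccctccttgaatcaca
Cd36 upstream window (chr5:17835897-17836146, minus strand): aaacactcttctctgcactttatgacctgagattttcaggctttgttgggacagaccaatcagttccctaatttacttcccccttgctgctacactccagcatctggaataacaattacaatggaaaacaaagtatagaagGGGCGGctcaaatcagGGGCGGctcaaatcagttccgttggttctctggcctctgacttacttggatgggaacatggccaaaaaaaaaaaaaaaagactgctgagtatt
Abca1 upstream window (chr4:53159896-53160145, minus strand): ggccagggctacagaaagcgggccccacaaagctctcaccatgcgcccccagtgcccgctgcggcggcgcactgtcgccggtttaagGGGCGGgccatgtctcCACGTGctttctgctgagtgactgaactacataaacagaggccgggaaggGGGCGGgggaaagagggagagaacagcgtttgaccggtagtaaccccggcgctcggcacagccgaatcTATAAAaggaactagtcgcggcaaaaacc
The Trem2 window held 1 PU.1 core, which 10.6% of 32851 windows of this length hold, and PU.1 is a factor of myeloid cells. The Cd36 window held 2 GC boxes (32.7% of windows hold at least 1), and the Abca1 window held an E-box (6.02%), 2 GC boxes and a TATA box (12.4%). A match describes letters only and no binding. The Cd36 start used lies inside the full span of the gene given above, and the Abca1 window also overlaps its end, since other transcripts begin farther upstream, so motifs before those starts were not searched.

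The first question of the design was whether the agents changed these genes. None of the 9 members was called in any of the 4 gates for PancVAX, anti–PD-1 or anti–CTLA-4 (edgeR quasi-likelihood test over all genes of a gate, Benjamini-Hochberg adjusted p below 0.05 and a log2 change over 0.5). In macrophages the share of all genes called was 0.0256% for PancVAX, 0% for anti–PD-1 and 0% for anti–CTLA-4. In monocytes it was 0%, 0.0245% and 0%, in stromal cells 0.103%, 0.558% and 0%, and in endothelial cells 0.346%, 0.598% and 0%. Of 84 tests of a member in a gate, 19 had an unadjusted p below 0.05 (22.6%, beside 7.65% of all gene tests), and DESeq2 called 1, stromal Lpl for anti–PD-1. By agent these were 6 of 28 for PancVAX (12.4% of all gene tests), 10 of 28 for anti–PD-1 (6.18%) and 3 of 28 for anti–CTLA-4 (4.35%), and the tests of a gene in 4 gates share pools. All 9 members were tested in macrophages, 6 in monocytes, 6 in stromal cells and 7 in endothelial cells, the others being too low. In simulations, 200 genes drawn from all tested genes of a gate were changed at once. The adjusted threshold is then easier to pass than with a few changed genes, so a single changed member may be recovered less often. Of genes changed 2-fold by PancVAX, 86.5% were recovered in macrophages, 52.5% in monocytes, 63% in stromal cells and 41% in endothelial cells. At 1.5-fold recovery was 44% in macrophages and 1% in endothelial cells.

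**Figure D3:**
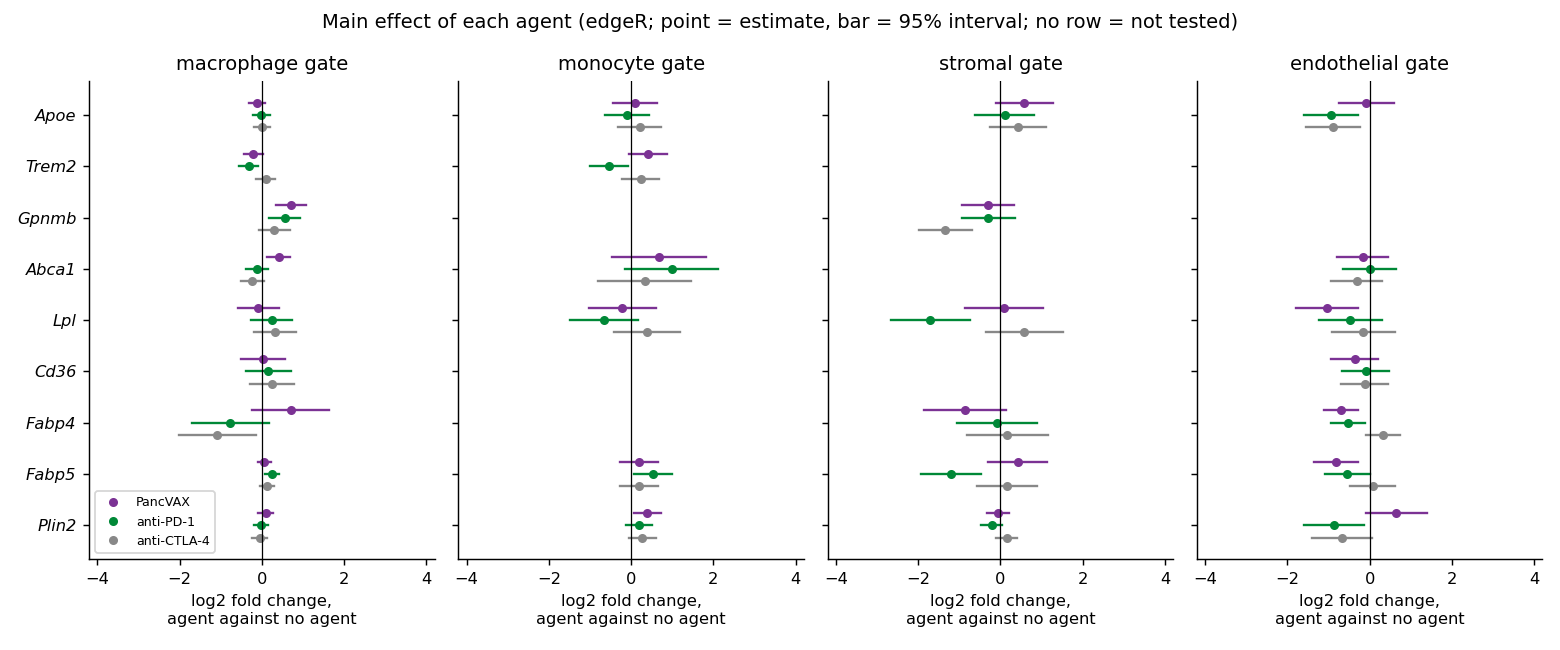
Log2 fold change of each tested member with against without PancVAX (purple), anti–PD-1 (green) and anti–CTLA-4 (gray) over 8 pools in 4 gates, with points for edgeR estimates and bars for 95% intervals. In macrophages Apoe, Fabp5 and Plin2 have short bars. Intervals that leave out 0 there are those of Gpnmb and Abca1 (above) for PancVAX, Gpnmb and Fabp5 (above) and Trem2 (below) for anti–PD-1, and Fabp4 (below) for anti–CTLA-4, and no adjusted p passed 0.05.

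In macrophages, Apoe with PancVAX had a log2 change of -0.12 (95% interval -0.32 to 0.08), Plin2 of 0.09 (-0.08 to 0.27) and Fabp5 of 0.06 (-0.11 to 0.22). These intervals leave no room for a change of 0.5 on the log2 scale in the edgeR fit. The interval of Fabp4 was wide, from -0.23 to 1.64, with 14 to 125 UMIs per pool.

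Gpnmb had the smallest p of the members in macrophages. Its pools with PancVAX were at 8.28 (PancVAX), 16.0 (all 3 agents), 9.51 (with anti–PD-1) and 8.86 CPM (with anti–CTLA-4), and those without were at 8.03 (both antibodies), 4.64 (anti–CTLA-4), 6.59 (anti–PD-1) and 5.43 CPM (isotype control). The groups did not overlap, although their nearest values, 8.28 and 8.03, differed by little. The log2 change was 0.71 (SE 0.17), with an unadjusted p of 0.0018 and an edgeR adjusted p of 0.133, on 41 to 115 UMIs per pool. With no filter on low counts its adjusted p was 0.033 (edgeR), and this alternative alone called it. In whole-tumor libraries alone the change was 0.34, in Percoll libraries alone 1.35 and with clusters 0.38 (edgeR adjusted p of 0.653, 0.332 and 0.417). For anti–PD-1 the Gpnmb change was 0.56 (SE 0.17, edgeR adjusted p = 0.909).

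Abca1 in macrophages was at 98.3, 75.0, 115 and 114 CPM with PancVAX (alone, all 3 agents, with anti–PD-1, with anti–CTLA-4) and at 67.8, 60.2, 72.9 and 89.8 CPM without it (both antibodies, anti–CTLA-4, anti–PD-1, isotype control). The isotype control pool lay above the pool of all 3 agents, so the groups overlapped. The log2 change was 0.41 (SE 0.12, 95% interval 0.13 to 0.68), with an edgeR adjusted p of 0.181. Trem2 was at 168, 126, 116 and 193 CPM with PancVAX and 150, 172, 165 and 163 CPM without it, in the same order of pools. Its change was -0.20 (SE 0.11, edgeR adjusted p = 0.377).

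In endothelial cells, Fabp4 was at 2745, 2586, 1798 and 4413 CPM with PancVAX (alone, all 3 agents, with anti–PD-1, with anti–CTLA-4) and at 4729, 4018, 3111 and 5522 CPM without it (both antibodies, anti–CTLA-4, anti–PD-1, isotype control). The groups overlapped through the pool of PancVAX with anti–CTLA-4. Its log2 change was -0.69 (SE 0.20), with an edgeR adjusted p of 0.236. Endothelial Lpl (-1.04, SE 0.36) and Fabp5 (-0.82, SE 0.26) also had unadjusted p values below 0.05 and edgeR adjusted p values of 0.454 and 0.339. These pools held 20 to 52 endothelial cells, of which 75.0%, 50.0%, 44.2% and 20.7% came from Percoll libraries with PancVAX and 58.6%, 13.6%, 35.0% and 12.5% without it, in the same order of pools. In whole-tumor libraries alone, Fabp4 was at 6570, 3663, 2506 and 5028 CPM with PancVAX and 5083, 4593, 3032 and 4638 CPM without it. The log2 changes there were -0.07 for Fabp4, -0.20 for Fabp5 and -0.66 for Lpl (edgeR adjusted p of 0.989, 0.971 and 0.775), nearer to 0 than in the pools. With single libraries as units and preparation as a covariate they were -0.56, -0.65 and -0.60 (lowest edgeR adjusted p 0.83). Only 4 Percoll libraries had enough endothelial cells to enter that fit, those of PancVAX, all 3 agents, PancVAX with anti–PD-1, and both antibodies.

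Apoe in endothelial cells was at 74.6 (all 3 agents), 191 (with PancVAX), 222 (both antibodies) and 282 CPM (anti–PD-1) in the pools with anti–PD-1, and at 640 (PancVAX), 267 (PancVAX with anti–CTLA-4), 206 (anti–CTLA-4) and 315 CPM (isotype control) in those without. The groups overlapped, and the change was -0.95 (SE 0.31, edgeR adjusted p = 0.328). It was called without the isotype control pool (-1.31, edgeR adjusted p = 0.0073) and with no filter on low counts (-0.93, 0.0479). It was -0.54 in whole-tumor libraries alone (edgeR adjusted p = 0.741) and -0.15 with no cap on UMI and gene numbers (0.991). The highest pool, PancVAX, was also the pool with the most macrophage RNA in this gate, at 763 CPM of the macrophage panel against 97.7 to 392 CPM in the other pools, and its Plin2 was 206 CPM against 40.3 to 92.2 CPM. The part of this RNA in Apoe and Plin2 was not tested.

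Anti–PD-1 changes in macrophages were small for Fabp5 and Trem2. Fabp5 was at 460, 459, 501 and 402 CPM with anti–PD-1 (all 3 agents, with PancVAX, both antibodies, alone) and at 419, 412, 366 and 347 CPM without it (PancVAX, PancVAX with anti–CTLA-4, anti–CTLA-4, isotype control), for a change of 0.25 (SE 0.07, edgeR adjusted p = 0.909). Trem2 was at 126, 116, 150 and 165 CPM with it and at 168, 193, 172 and 163 CPM without it, for a change of -0.32 (SE 0.11, edgeR adjusted p = 0.909). Both genes overlapped between groups through the anti–PD-1 pool. In monocytes the same genes had changes of 0.53 (SE 0.22) and -0.54 (SE 0.22), each with an edgeR adjusted p of 0.785.

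Monocyte Plin2 was at 550, 647, 436 and 540 CPM with PancVAX (alone, all 3 agents, with anti–PD-1, with anti–CTLA-4) and at 548, 356, 393 and 354 CPM without it (both antibodies, anti–CTLA-4, anti–PD-1, isotype control). The pool of both antibodies lay among those with PancVAX, and the change was 0.39 (SE 0.15, edgeR adjusted p = 0.535).

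In stromal cells, Lpl with anti–PD-1 was at 16.9 (all 3 agents), 2.96 (with PancVAX), 9.34 (both antibodies) and 2.25 CPM (anti–PD-1), against 25.6 (PancVAX), 18.6 (PancVAX with anti–CTLA-4), 20.8 (anti–CTLA-4) and 25.8 CPM (isotype control). The groups did not overlap, and the log2 change was -1.70 (SE 0.44, edgeR adjusted p = 0.165), on 3 to 39 UMIs per pool. It was called by DESeq2 (-1.83, adjusted p = 0.0477), without a filter on low counts, and in the fits without the pool of all 3 agents (-2.27) or of PancVAX with anti–CTLA-4 (-2.09). It was smaller and not called with clusters (-1.20, edgeR adjusted p = 0.695) and with no cap on UMI and gene numbers (-1.17, 0.517). The same held with single libraries as units and preparation as a covariate (-1.48, edgeR adjusted p = 0.313). Stromal Fabp5 with anti–PD-1 had a change of -1.21 (SE 0.33, edgeR adjusted p = 0.212), called without the isotype control pool (-1.61, 0.0130), under a 5% mitochondrial limit (-1.33, 0.0284) and with no filter on low counts (-1.18, 2.11e-05). Within the gate, Fabp5 was at 12.9 CPM in the 1376 cells with 2 or 3 of Sox9, Prelp and Ogn. It was at 60.4 CPM in 238 cells with 1 of them and 167 CPM in 100 cells with 0. Lpl was at 10.8, 29.4 and 11.5 CPM in the same order. The part of this mix of cells in the changes was not tested. Stromal Gpnmb was at 7.22 (all 3 agents), 8.74 (with PancVAX), 7.90 (both antibodies) and 5.33 CPM (anti–CTLA-4) in the pools with anti–CTLA-4, and at 17.6 (PancVAX), 12.6 (PancVAX with anti–PD-1), 18.0 (anti–PD-1) and 25.8 CPM (isotype control) in those without. The groups did not overlap. The change was -1.34 (SE 0.30), with an unadjusted p of 0.000636, which became an edgeR adjusted p of 0.9998 over the 9675 genes of the gate, and it was called only with no filter on low counts (edgeR adjusted p = 0.0077).

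Whether PancVAX acted differently on a member in different gates was tested by exact permutation of the 8 pools over all 70 splits. Of 54 differences of effects, 1 had an unadjusted exact permutation p below 0.05, at 0.0286, the smallest the design allows, and the lowest adjusted p was 0.726. With that smallest p over 54 tests, a single difference could not pass the adjustment whatever its size. The tests therefore do not show that PancVAX acted alike in the gates. That 1 was Gpnmb in macrophages against endothelial cells, where Gpnmb is at 0.

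The second question was how Percoll enrichment, with its sequencing batch, changed the values of the same treatments. In endothelial cells, where 0.323% of genes were called, 1 of 5 tested members was called. Cd36 was at 577 (PancVAX), 539 (all 3 agents), 582 (PancVAX with anti–PD-1) and 687 CPM (both antibodies) in whole tumor, and at 41.4, 102, 107 and 184 CPM in the Percoll libraries of the same pools. Every Percoll value lay below every whole-tumor value. Cd36 fell by 2.52 on the log2 scale (SE 0.31, edgeR adjusted p = 0.0113), on 5 to 15 UMIs per Percoll library. Without 1 of 3 of these pools (all 3 agents, PancVAX with anti–PD-1, both antibodies) the call was lost, with changes of -2.57, -2.53 and -2.77 and edgeR adjusted p values of 0.119, 0.215 and 0.0676. The call was also lost under a mitochondrial limit of 5% (-2.80, edgeR adjusted p = 0.0723) and with clusters in place of gates (-3.07, edgeR adjusted p = 0.170). With no limit on high UMI and gene numbers the change was -1.30 (edgeR adjusted p = 0.0378).

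Endothelial Fabp4 was at 6570, 3663, 2506 and 5083 CPM in those whole-tumor libraries and 878, 1706, 524 and 4457 CPM in their Percoll partners, in the same order. The ranges overlapped, and the change of -1.56 (SE 0.38) had an edgeR adjusted p of 0.133. Fabp5 (-1.18, SE 0.37) was not called either, and Abca1 had a change of -0.06 (SE 0.37). The summed endothelial panel was 6145 to 8302 CPM in 8 whole-tumor libraries (median 7221) and 3737 to 7456 CPM in 4 Percoll libraries (median 7256). These whole-tumor values cover all treatments, more than entered the fit of Cd36. Panels of other cells differed with the preparation in this gate. The T or NK panel had a median of 7.99 CPM in whole tumor and 185 CPM in Percoll, and the neutrophil panel 16.5 and 109 CPM. The monocyte (54.8 and 137 CPM), macrophage (201 and 255 CPM) and dendritic panels (381 and 470 CPM) also had higher medians in Percoll. The tumor or epithelial (47.3 and 24.3 CPM), stromal (26.4 and 12.2 CPM) and B panels (3.93 and 0 CPM) had lower ones. The part of other cells in the fall of Cd36 was not tested.

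**Figure D4:**
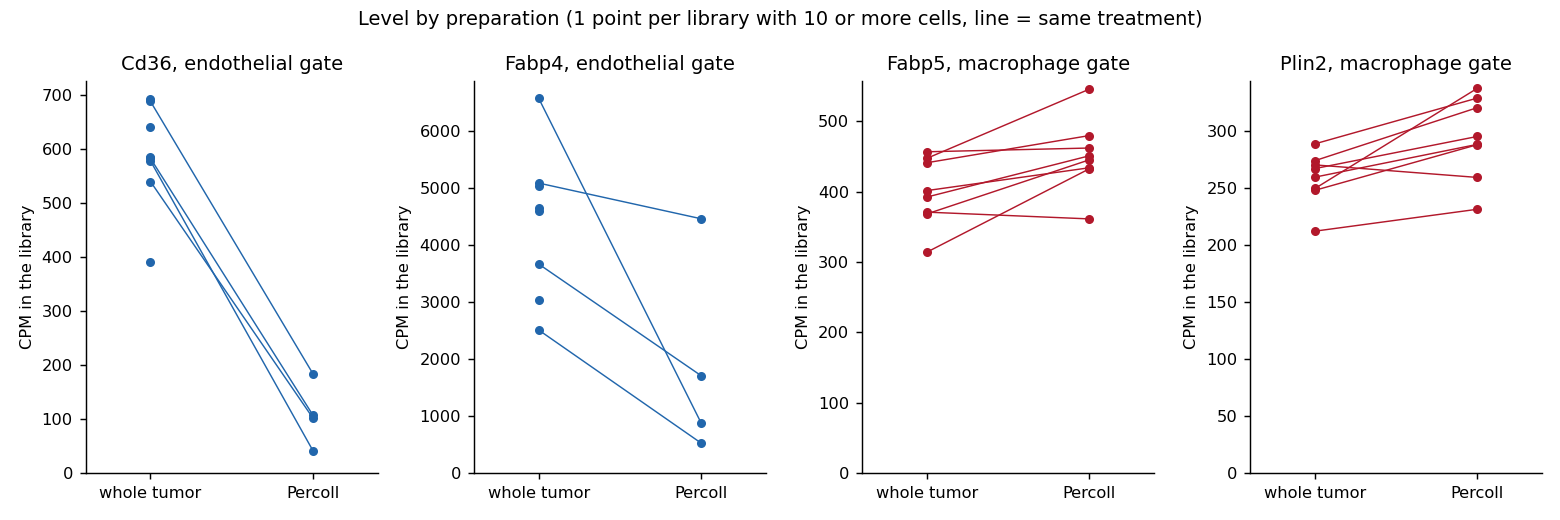
CPM of Cd36 and Fabp4 in the endothelial gate (4 treatments with both libraries, 4 with whole tumor only) and of Fabp5 and Plin2 in the macrophage gate (8 treatments), by preparation; each point is a library and lines join libraries of 1 treatment. The 4 Percoll values of Cd36 (41.4 to 184 CPM) lie below all whole-tumor values, and 7 of 8 lines run upward for each macrophage gene.

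In macrophages, where 3.21% of genes were called, none of the 9 members was called by edgeR, 2 had an unadjusted p below 0.05 (as did 25.3% of all genes), and DESeq2 called none. Plin2 was at 212 to 289 CPM in whole-tumor libraries (median 263) and 231 to 338 CPM in Percoll libraries (median 292), higher in 7 of 8 treatments, with a log2 change of 0.23 (SE 0.06, edgeR adjusted p = 0.0188). Fabp5 was at 314 to 457 CPM in whole tumor (median 397) and 361 to 546 CPM in Percoll (median 448), higher in 7 of 8 treatments, with the same change of 0.23 (SE 0.06, edgeR adjusted p = 0.0294). Both passed the p and were under the size asked for, and both groups overlapped. No member was called in monocytes (5 tested, 3.94% of genes called, 2 with an unadjusted p below 0.05 as had 19.1% of all genes, none by DESeq2) or stromal cells (6 tested, 2.31%, 2 as had 18.7%, and none). Stromal Lpl had a change of -1.55 (SE 0.45, edgeR adjusted p = 0.0689), and it was called without the pool of PancVAX with anti–PD-1 (-1.86, edgeR adjusted p = 0.0215), the one with the Percoll library that stood apart.

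The same fits were made in T or NK cells, where Apoe, Abca1, Fabp4, Fabp5 and Plin2 could be tested. For PancVAX none of 5 tested members was called there while 8.44% of genes were, none had an unadjusted p below 0.05, and DESeq2 called none. For Percoll, where 4.97% of genes were called, Apoe fell by 0.59 on the log2 scale (SE 0.15, edgeR adjusted p = 0.0109). It was at 58.8 to 122 CPM in whole-tumor libraries (median 82.6) and at 25.3 to 75.3 CPM in Percoll libraries (median 53.2), lower in 7 of 8 treatments, with overlapping ranges. Without the isotype control pool or the pool of PancVAX with anti–CTLA-4 the change was -0.48 or -0.49, under the size asked for.

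Among 82 other genes of these pathways (LXR and efflux, receptors, cholesterol synthesis, fatty acid storage, fatty acid synthesis and oxidation, and lipid-associated macrophage genes), none was called by edgeR for an agent in macrophages (74 tested), monocytes (46) or stromal cells (62). Over the 3 agents, 27, 12 and 15 tests in these gates had an unadjusted p below 0.05 (12.2%, 8.70% and 8.06%, beside 8.74%, 6.13% and 7.24% of all gene tests), and in endothelial cells 16 of 72 did (22.2%, beside 6.84%). In the 4 gates DESeq2 called only stromal Cyp51 (1.08) and Hmgcs1 (0.89), enzymes of cholesterol synthesis, for PancVAX. In T or NK cells, where 8.44% of genes were called for PancVAX, edgeR called 9 of 66 genes of the list higher and 2 lower and DESeq2 called 8 in all, among them Lgals3 (1.88 in edgeR), Itgax (1.77) and Cst7 (-0.83). In stromal cells 6 of the 11 cholesterol synthesis genes had an unadjusted p below 0.05 for PancVAX (11.7% of all genes did), and their median log2 change was 0.53 beside 0.01 over all genes, with no call by edgeR. This is 1 of 6 lists and the only one whose count is printed. For PancVAX it had 1 such gene of 11 in macrophages, 1 of 8 in monocytes and 3 of 11 in T or NK cells. Over the whole list the PancVAX median was 0.09 in stromal cells and 0.03 in macrophages, beside 0.01 and 0.00 over all genes. In endothelial cells 1 of 24 was called for anti–PD-1 (0.598% of all genes were), Spp1, which encodes the matrix protein osteopontin (-4.50, SE 0.70, edgeR adjusted p = 0.0058). Its endothelial values ran from 0 to 27.7 CPM with anti–PD-1 and from 32.6 to 780 CPM without, the highest in the PancVAX pool, while the stromal mean was 1056 CPM. The tumor or epithelial panel moved with it in this gate, at 61.4 to 624 CPM without anti–PD-1, again highest in the PancVAX pool, and at 6.22 to 21.3 CPM with it, and its part in the Spp1 call was not tested. Spp1 kept the call in 9 of 16 alternatives, and lost it without the PancVAX pool (-2.71, edgeR adjusted p = 0.317), without the pool of PancVAX with anti–PD-1 (-2.89, 0.762) or of all 3 agents (-4.22, 0.0553), in DESeq2 (-3.84, 0.967) and with no upper UMI and gene limits (-0.21, 0.988). With Percoll, Hilpda, a droplet protein that inhibits lipolysis, rose in macrophages (0.56, SE 0.08, edgeR adjusted p = 0.00057) and in stromal cells (0.98, SE 0.13, edgeR adjusted p = 0.00079). Its means there, 117 and 101 CPM, lay below the 288 CPM of T or NK cells, where the change was 0.19 and under the size asked for. G0s2, another inhibitor of lipolysis, fell in macrophages (-1.54, SE 0.32, edgeR adjusted p = 0.0087), and fell by 1.51 in T or NK cells too (edgeR adjusted p = 0.0050). Its mean was 17.2 CPM in macrophages and 17.4 CPM in T or NK cells, so the macrophage mean was not the higher, and it was a leading gene of a neutrophil cluster. Lgals3 rose in monocytes (0.50) and stromal cells (0.52), Pnpla2, the main triglyceride lipase, rose in stromal cells (0.67), and Scd2, a fatty acid desaturase, fell there (-0.62), at edgeR adjusted p values of 0.00046, 0.0413, 0.0144 and 0.0228. Stromal Lgals3 had a mean of 387 CPM against 421 CPM in T or NK cells, where its change was 0.30. The part of RNA from other cells in these changes was not tested. The 2 Hilpda calls and G0s2 were kept in 15 or 16 of 17 alternatives each, those of Pnpla2 and Scd2 in 12 and 11, and those of Lgals3 in 9 (monocytes) and 6 (stromal cells). These were 2 of 73 genes tested in macrophages, 1 of 33 in monocytes and 4 of 57 in stromal cells, beside 3.21%, 3.94% and 2.31% of all genes, so that the macrophage and monocyte counts were not above the share of all genes.

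Some partners of the members in lipid transport were also measured in each gate. Gpihbp1, which holds LPL on capillary endothelium, had a mean of 1110 CPM in endothelial cells and under 1 CPM in the 3 other gates. Scarb1, the HDL receptor, had 289 CPM in endothelial cells against 50.7 in macrophages. Nr1h3, which encodes LXR alpha, had 54.6 CPM in macrophages, 4.76 in monocytes, 4.00 in endothelial cells and 1.78 in stromal cells, and Abcg1, a cholesterol exporter, had 75.9 CPM in macrophages and 50.9 in endothelial cells. These are levels with no test.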

How the data were processed

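Single-cell 5′ RNA-Seq UMIs were measured in 16 libraries of 8 treatment pools. Per the submitters' notes the reads were aligned and counted with Cell Ranger 4.0.0 on mm10, and the deposited values are raw UMI counts per gene and barcode. The number that ends a barcode was matched with the sample description to find its library. T cell receptor contigs were not used. The 9 members and all lists were chosen with earlier results of these data known, and the gate thresholds and the naming rule of clusters were set after cell counts and member levels under 3 gate settings had been seen.

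As in the study's methods, a barcode was kept with 200–3000 genes, 1000–10000 UMIs, less than 10% mitochondrial RNA and no hemoglobin transcripts. UMIs were summed per gate and pool (preparation effect: per library), with sums of under 10 cells left out. No doublet caller was run. Sums were tested with edgeR 4.0.16 (quasi-likelihood, TMM, filterByExpr, two-sided, Benjamini-Hochberg) with the other agents as covariates, or with pool as a block for preparation. The study's methods tested cells as replicates with MAST, which was not used. Same-treatment libraries come from mice pooled alike, which is where this pairing comes from. A cluster took the name of a panel with 3 or more markers raised by a log2 fold over 1, more than of any other panel. Gates were compared by exact sign-flip permutation with a pseudocount of 1 CPM, and likeness over genes at 10 CPM or more in a gate. Named genes were all members, called genes of the fixed pathway list (up to 4 per direction) and the 3 most alike genes of a member, of which some are printed. Cyp51, Hmgcs1 and the partner genes in the last paragraph were chosen after their values were seen. Tests were checked on simulated data. Alternatives were DESeq2 1.42.0, RLE size factors, no count filter, single preparations, libraries as units, other cell limits, a stricter gate, Leiden clusters (leidenalg 0.10.2, igraph 0.11.9, 25 components, resolution 1) and leaving out each pool. Clusters without the cluster led by mast cell proteases were added for gate differences after seeing the data. Software was Python 3.11.15 and R 4.3.3. Intervals of shares are exact at 95%, floors take 3 counts, and both cover counting error only.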

Additional observations from a re-analysis of the deposited data

Results flagged for a closer look

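Of 69 groups of 4 pools (a member in a gate, with or without PancVAX), 7 had 1 pool far from the other 3, and no cause was tested. About 1 in 20 is expected from chance, but not where the other 3 pools are at 0, since any UMI is then flagged. The count is therefore not read as an excess. Macrophage Apoe was at 11665 CPM in the anti–CTLA-4 pool against 13968 to 14384 in the other pools without PancVAX. Macrophage Lpl was at 45.2 CPM with isotype control against 58.9 to 59.4. Monocyte Fabp5 was at 294 CPM with PancVAX and anti–PD-1 against 193 to 206 in the other pools with PancVAX. Endothelial Plin2 was at 206 CPM with PancVAX alone against 62.2 to 74.5. The remaining 3 rest on a few UMIs against 0 in the other pools, so their flags follow from the zeros. They were stromal Trem2 at 0.718 CPM with both antibodies, endothelial Trem2 at 5.57 CPM with PancVAX alone, and stromal Cd36 at 0.533 CPM with anti–CTLA-4.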

How the results depend on the processing

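The fits with single libraries as units had preparation as a covariate and no term for the pool. Libraries of the same treatment counted there as separate units, and in endothelial cells only 4 Percoll libraries entered. These fits called 0 members for every agent in the 4 gates, as did the pools. The preparation fits with no replicate block (the treatment pool) called 1 member in endothelial cells (Cd36, -2.48) and 0 in the other 3 gates. Leaving out that block changed no count of members called for preparation. With no filter on low counts, 1 member was called for PancVAX in macrophages (Gpnmb) and 1 in endothelial cells (Fabp4), 1 for anti–PD-1 in endothelial cells (Apoe) and 2 in stromal cells, 1 for anti–CTLA-4 in stromal cells, and 3 (endothelial), 1 (macrophage) and 2 (stromal) for preparation. That setting tests another set of genes. The shares of all genes called that are given above are from fits with the filter and do not apply to these counts. For anti–PD-1 DESeq2 called 1 stromal member, Lpl, and the 5% mitochondrial limit another 1, Fabp5. For preparation, 2 endothelial, 1 macrophage (Gpnmb, 0.68) and 1 stromal member (Apoe, -0.59) were called without upper limits, 0 endothelial ones under the 5% mitochondrial limit, and with clusters 0 endothelial, 1 monocyte (Fabp4) and 1 stromal (Lpl, -1.63).

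Leaving out 1 pool gave 0 to 1 member for anti–CTLA-4 and for anti–PD-1 in endothelial cells (Apoe, without isotype control), for anti–PD-1 in stromal cells, and for preparation in endothelial, monocyte (Fabp5, without both antibodies, or Lpl, without anti–CTLA-4) and stromal cells. Of the 54 gate differences, 39 to 41 were called without 1 pool and 17 in Percoll libraries alone. There the 27 differences with endothelial cells had 4 pools and could not pass, since 0.125 is the smallest exact p, and of the 27 others 17 were called, against 18 with both preparations. Lpl in stromal minus endothelial cells turned there from a called -2.40 to 2.16. Sign also changed, without upper limits, for Lpl in macrophages minus endothelial cells (2.17), Lpl in monocytes minus endothelial cells (1.499) and Gpnmb in macrophages minus stromal cells (0.58). With clusters it changed for macrophages minus monocytes of Trem2 (-0.17), Abca1 (-0.016), Fabp5 (-0.26), Cd36 (-1.73) and Gpnmb (-1.77), and for Fabp5 in monocytes minus endothelial cells (1.25). With the cluster led by mast cell proteases left unnamed, an alternative chosen after seeing the data, 41 differences were called and those signs changed again for Trem2 (-0.15), Fabp5 (-0.34 and 1.25), Cd36 (-1.81) and Gpnmb (-1.73), while Abca1 in macrophages minus monocytes was 0.11 and not called. The cause was not tested. Of 2876 single values recomputed, 57 lost a call, 41 gained one and 15 turned. Of 1958 agent or preparation values, 181 changed sign with no call on either side. The endothelial gate could not be fitted on its 4 Percoll libraries alone. Depth limits the low members: Gpnmb had 41 to 115 UMIs in a macrophage pool and Lpl 6 to 20 in an endothelial pool.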
